A study of Mus musculus with 9 samples.

Results

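The neurexin, neuroligin and contactin-associated genes considered here were Nrxn2, Nrxn3, Nlgn1, Nlgn2, Nlgn3, Cntnap1, Cntnap2, Cntnap3 and Cntnap4, 9 genes in all. They were chosen because Nrxn3 and Cntnap2 stood among the genes with the most regions in a list of accessible chromatin, and every distinct region whose gene symbol was one of the 9 was taken. This selection on region number gave 43 regions on 7 of the 9 genes, out of 17164 distinct regions on 11541 genes. Nrxn3 had 21 regions, Cntnap2 had 13, Nlgn1 had 4, Cntnap3 had 2, and Nrxn2, Nlgn3 and Cntnap4 had 1 each. Nlgn2 and Cntnap1 had none. The numbers of regions per gene are therefore what the genes were selected on and carry no test.

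The study profiled open chromatin by ATAC-Seq, an assay that tags DNA free of nucleosomes through insertions of the enzyme Tn5, in pharyngeal mesoderm and hearts taken from mouse embryos at E8.75 with 6 somites. The series holds 9 libraries in 3 groups of 3: wild-type embryos (control), Isl1-/- embryos and Isl1Cre+/-/ Brg1fl/fl embryos, in which Cre from the Isl1 locus deletes Brg1, the ATPase of the SWI/SNF chromatin remodeling complex, where that locus is active. Isl1 is a LIM-homeodomain transcription factor of cardiac progenitors. The list used here holds only regions common to the 3 control libraries, with no value per library, so nothing below compares genotypes or carries a replicate error, and the mutant libraries were not used here. Read depth is unknown from the list, region width is a length and not a signal, and every interval given covers counting error only.

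Neurexins are presynaptic membrane proteins that bind neuroligins across the synapse, and most are made in a long alpha and a short beta form from separate promoters of one gene. Contactin-associated proteins (Caspr proteins) share extracellular domains with neurexins. Caspr and Caspr2 hold the axon membrane and its ion channels in place beside the nodes of Ranvier. These genes are best known from mature neurons, and several of them are among the longest genes of the genome.

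The tissue label was checked on marker genes. Of the 6 heart and second heart field markers 5 had a region and 4 had a region within 1 kb of a transcription start site (TSS), with 9 regions on Isl1, 5 on Mef2c and 4 on Tbx20, and none assigned to Nkx2-5. The share of all coding genes was 49.3% for a region and 40.6% for a region at a start. Of the 9 neural tube markers 5 had a region and 3 had a region at a start, 55.6% and 33.3%, led by Elavl4 and Pax6 with 4 each and Sox1 with 2, while Sox2, Neurog1, Tubb3 and Elavl3 had none. Of the 4 neural crest markers only Foxd3 had a region, and none had a region at a start. The part of neural cells in the results below was not tested, and because whole tissue was used, a region open in few cells and one open weakly in many cannot be told apart.

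Among the neurexins, Nrxn3 was accessible at the start of its short form and not at the annotated coding starts of its long form. Its most upstream annotated start, at 89961320 and of noncoding transcripts, also had a region. Nrxn3 lies on chromosome 12 of mm9 from 89961320 to 91573375 on the plus strand, a span of 1612 kb in the GENCODE annotation of that build. Its longest transcript, Nrxn3-001, begins at 90032948, has 20 exons and covers 1540 kb. A region of 1891 bp, chr12:91049730-91051620, the widest of all 43, covered the start at 91050923, where the short transcripts of 6 or 7 exons (Nrxn3-006, Nrxn3-010 and Nrxn3-204) begin. No region came within 1 kb of the long starts: the nearest region center lay 41524 bp from 90032948, 40589 bp from 90033629 and 31010 bp from 90191834. The coding starts at 90431550 and 91560387 had none either, with the nearest centers at 11733 bp and 189408 bp.

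The 200 bases before the 3 Nrxn3 starts to which the list assigned regions are shown because they carry this contrast. They are read 5′ to 3′ from mm9, and the same letters stand in the RefSeq promoter table of build GRCm38.p6. Capitals mark CG dinucleotides, whose bearing on the presence of a region was not tested. The first, chr12:90032748-90032947, holds 0 CG and lies in no region, the second, chr12:90191634-90191833, holds 4 and lies in no region, and the third, chr12:91050723-91050922, holds 8 and lies in the 1891 bp region.
Nrxn3 start 90032948: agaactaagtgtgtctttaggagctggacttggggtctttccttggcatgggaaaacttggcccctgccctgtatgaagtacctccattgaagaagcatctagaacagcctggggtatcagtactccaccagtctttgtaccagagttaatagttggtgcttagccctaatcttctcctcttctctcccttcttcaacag
Nrxn3 start 90191834: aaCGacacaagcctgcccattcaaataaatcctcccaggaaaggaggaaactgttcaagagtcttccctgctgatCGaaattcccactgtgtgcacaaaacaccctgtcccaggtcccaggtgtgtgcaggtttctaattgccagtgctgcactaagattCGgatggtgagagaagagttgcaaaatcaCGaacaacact
Nrxn3 start 91050923: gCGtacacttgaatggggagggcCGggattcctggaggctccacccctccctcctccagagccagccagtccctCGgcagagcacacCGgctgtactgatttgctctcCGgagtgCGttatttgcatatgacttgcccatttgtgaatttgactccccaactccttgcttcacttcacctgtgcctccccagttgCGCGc

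The first of these sequences ends in the letters AG, which are also the letters that precede an exon at a splice acceptor. It was the only 1 of 18 coding starts of the 9 genes preceded by AG. Of all coding starts 6.29% (1830) were, and 22.7% of those had a region within 1 kb, against 37.2% of the other 27247. Any bearing of these letters on the absence of a region was not tested. A region of 1221 bp, chr12:89960782-89962002, covered a start 71.6 kb further upstream, at 89961320, where GENCODE begins 3 noncoding Nrxn3 transcripts, and the list counted it as 71556 bp upstream of the long start.

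The other 19 Nrxn3 regions lay outside these starts, and they were spread over most of the gene. Of the 21 regions 19 were inside the gene, 18 of them in introns of Nrxn3-001. Intron 3 (336713 bp) held 5 and intron 14 (443332 bp), which contains the short start, held 5. Neighboring regions were a median of 59.3 kb apart, with the smallest gap 7.60 kb and the largest 319 kb. By the assigned TSS the farthest were 372659 bp downstream (chr12:90564008-90564978) and 369884 bp upstream (chr12:90680708-90681371). The widest away from a start, chr12:91002510-91004141, measured 1632 bp and lay 47598 bp upstream of the short start, and the narrowest, chr12:90480784-90481363, measured 580 bp. The gene held 11.8 regions per Mb of span (95% Poisson interval 7.10 to 18.4), and the 2 Mb on each side held 8.25 per Mb.

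Nrxn2 had a region at a start of long transcripts and none at the start of its short ones. Its only region, chr19:6418090-6419139 (1050 bp), covered the start at 6418731, where Nrxn2-001 begins, with 23 exons. Neither the start at 6427923 nor the start of the short transcripts at 6497671 had a region, the nearest center being 9309 bp and 79057 bp away. These 2 starts without a region were the richest in CpG of all coding starts of the 9 genes, at 9.59 and 7.49 CpG per 100 bp, against 6.89 at the start with a region and 4.10 at the short Nrxn3 start.

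**Figure D1:**
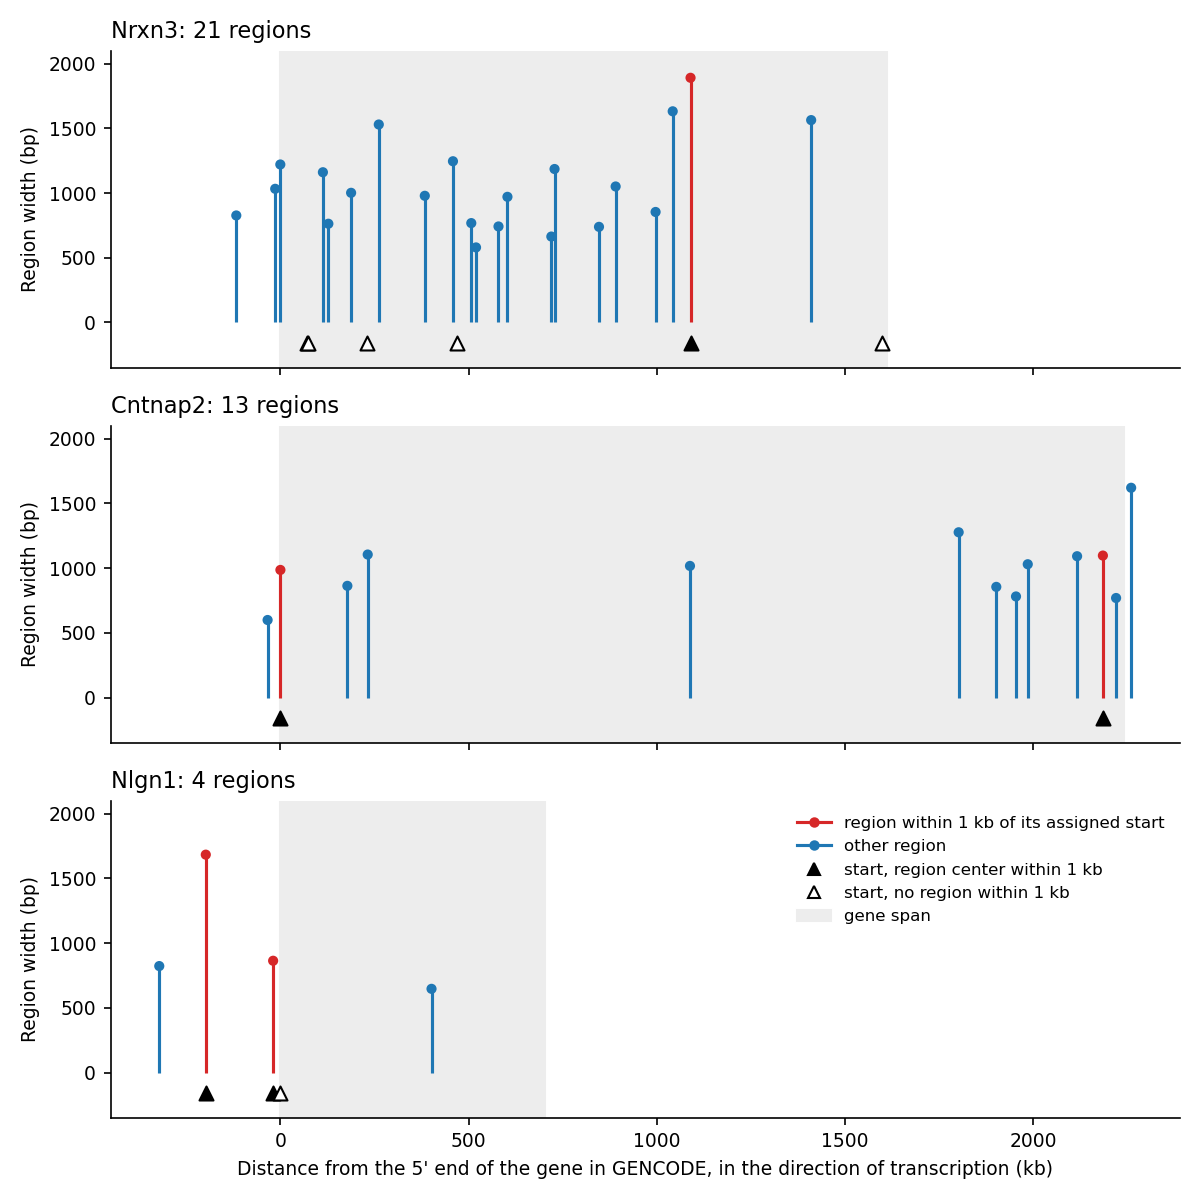
Accessible regions along Nrxn3, Cntnap2 and Nlgn1, the 3 longest of the 9 genes. Each line is a region at its distance (kb) from the 5′ end of the gene, with its width (bp) as height, red within 1 kb of its assigned start and blue elsewhere, triangles mark coding or assigned starts (filled, with a region center within 1 kb), and gray shows the gene span. Nrxn3 has 1 red line, at 1089.4 kb, and 5 open triangles, and Cntnap2 has a red line near each end.

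Among the neuroligins, postsynaptic partners of neurexins, only Nlgn1 and Nlgn3 had an assigned region. Nlgn1 runs on the minus strand of chromosome 3 from 26032656 to 25330733, and its 4 regions were 1684, 864, 823 and 647 bp wide. The widest, chr3:26229642-26231325, covered a RefSeq start at 26230831, 198 kb upstream of the GENCODE start, with 5.59 CpG per 100 bp. That region also lies in the gene A830092H15Rik, whose own start is 411 bp from its center. The region chr3:26051218-26052081 had its center 580 bp downstream of another assigned start at 26052229 without covering it. The GENCODE start at 26032656 had its nearest center 18993 bp away, and the present RefSeq start at 26052908 lay outside all regions. The farthest Nlgn1 region, chr3:25630767-25631413, lay 421139 bp downstream in an intron of 472564 bp, and 82.7% of its 31-base words have a further copy elsewhere in the genome. The 4th, chr3:26353617-26354439, lay 123197 bp upstream.

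The single Nlgn3 region, chrX:98527560-98528582 (1023 bp), lay 33553 bp downstream of the start and beyond the 3′ end of the gene, in intergenic sequence with 5.38 CpG per 100 bp. The coding starts of Nlgn3, from 98494507, had their nearest center 25077 bp away, in a region assigned to Med12. No region carried the name of Nlgn2, yet its long start at 69651286 on chromosome 11 lay inside chr11:69650901-69652451, a region assigned to Tmem256, with the center 390 bp away.

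Among the contactin-associated genes, Cntnap2, which encodes Caspr2, was accessible at both of its coding starts. The gene spans 2241 kb of chromosome 6 from 45010060 to 47251368 on the plus strand. A region of 986 bp, chr6:45009875-45010860, covered the start of the 24-exon transcript Cntnap2-001, and one of 1097 bp, chr6:47193814-47194910, covered the start of the 4-exon transcript Cntnap2-002 at 47194401, 2184 kb downstream. Another region, chr6:46994348-46995377 (1030 bp), covered the start of the noncoding transcript Cntnap2-003. The 200 bases before the 2 assigned starts are shown for comparison with Nrxn3, again with CG in capitals. The first, chr6:45009860-45010059, holds 9 CG and the second, chr6:47194195-47194394, holds 3.
Cntnap2 start 45010060: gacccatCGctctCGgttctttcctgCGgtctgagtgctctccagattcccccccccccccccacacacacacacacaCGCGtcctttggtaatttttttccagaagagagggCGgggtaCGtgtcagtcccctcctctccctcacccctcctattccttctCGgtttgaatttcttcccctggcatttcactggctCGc
Cntnap2 start 47194395: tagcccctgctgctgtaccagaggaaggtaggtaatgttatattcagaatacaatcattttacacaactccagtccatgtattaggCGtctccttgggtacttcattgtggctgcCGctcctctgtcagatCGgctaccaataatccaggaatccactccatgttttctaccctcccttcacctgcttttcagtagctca

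The 13 Cntnap2 regions were spread unevenly. The first 4 lay within 232 kb of the 5′ end, and then came gaps of 855 kb and 712 kb around a single region, chr6:46097425-46098441 (1017 bp), the farthest from its assigned start at 1087873 bp. The 8 remaining regions lay between 46810748 and 47270226. Inside the gene span there were 11 regions, 4.91 per Mb (2.45 to 8.78), against 8.25 per Mb in the 2 Mb on each side. The widest region, chr6:47268606-47270226 (1621 bp), lay beyond the 3′ end of the gene and was listed in 2 rows. Of chr6:47125335-47126426, 33.4% of the 31-base words have such copies.

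The 300 bases at the center of the widest region away from a start are shown for Nrxn3 (chr12:91003175-91003474) and Cntnap2 (chr6:47269266-47269565), plus strand of mm9. Capitals mark matches to the motifs searched. In Nrxn3 these are CAGCTG, an E-box, and CTGTCA, the reverse of the Meis motif TGACAG. In Cntnap2 they are CCGCCC, the reverse of the Sp motif, and CATTCC, the reverse of the TEAD motif.
Nrxn3 center: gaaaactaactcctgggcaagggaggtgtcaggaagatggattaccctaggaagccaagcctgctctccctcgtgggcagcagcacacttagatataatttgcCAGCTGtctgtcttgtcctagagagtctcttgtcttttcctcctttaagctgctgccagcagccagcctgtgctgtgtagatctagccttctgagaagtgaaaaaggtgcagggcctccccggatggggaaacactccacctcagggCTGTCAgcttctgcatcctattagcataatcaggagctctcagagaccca
Cntnap2 center: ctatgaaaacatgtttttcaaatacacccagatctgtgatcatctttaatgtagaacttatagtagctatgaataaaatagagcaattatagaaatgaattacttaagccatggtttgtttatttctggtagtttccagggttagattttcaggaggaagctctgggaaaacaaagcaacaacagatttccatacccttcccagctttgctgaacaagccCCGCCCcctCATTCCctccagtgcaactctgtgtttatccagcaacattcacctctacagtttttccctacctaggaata

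The smaller contactin-associated genes each had few regions. Cntnap3, on the minus strand of chromosome 13, had chr13:65004851-65005779 (929 bp) over its start at 65005196 and chr13:65011233-65012007 (775 bp) 6424 bp upstream. Cntnap4, on chromosome 8, had chr8:115095100-115096162 (1063 bp), in intron 1 and 1688 bp downstream of its start, just outside the 1 kb limit. Cntnap1, which encodes Caspr, had no assigned region. The nearest center to its coding start on chromosome 11, at 101037355, was 4357 bp away in a region assigned to Plekhh3, chr11:101032055-101033941, that lies inside the Cntnap1 span.

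**Figure D2:**
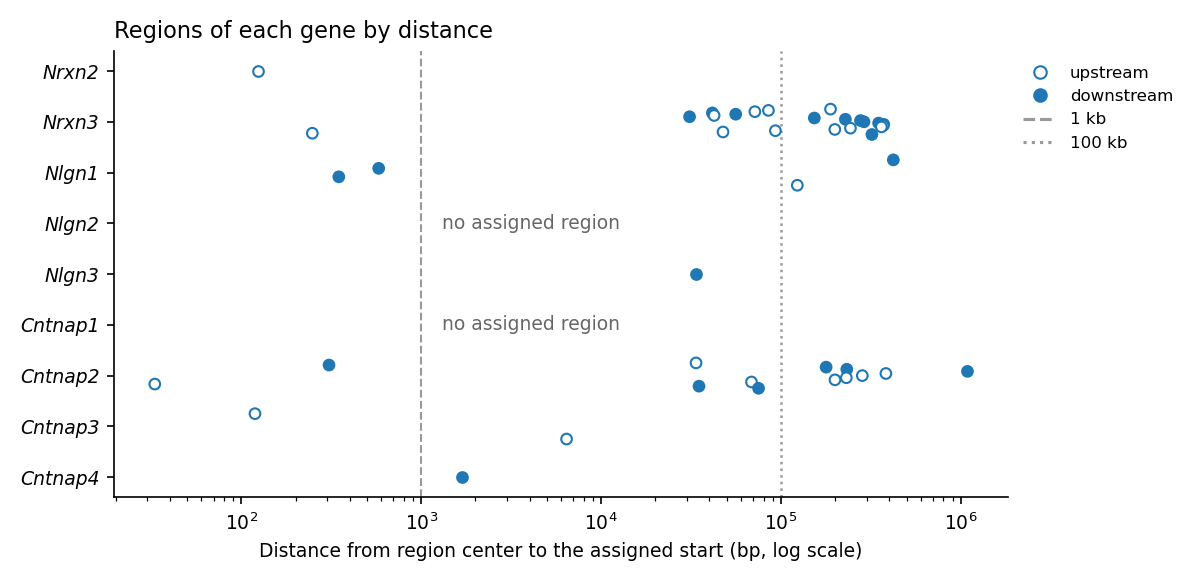
Distance (bp, log scale) from the center of each of the 43 regions to its assigned start, by gene, with open circles upstream and filled circles downstream. A total of 7 points lie left of the 1 kb line and 21 lie right of the 100 kb line, and Nlgn2 and Cntnap1 have none.

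Counted over genes, 7 of the 9 had a region, and 49.3% of all 21027 coding genes did. A region within 1 kb of the assigned TSS was present on 5 of the 9 (Nrxn2, Nrxn3, Nlgn1, Cntnap2 and Cntnap3), and 40.6% of all coding genes had one. Over annotated coding starts, 6 of 18 had a region center within 1 kb, 33.3%, and 36.3% of all 29077 coding starts did. At the starts of noncoding transcripts of the 9 genes 2 of 15 had one.

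Over the whole annotation, starts with more CpG more often had a region. Of all coding starts 1.10% had a region below 1 CpG per 100 bp, 6.27% between 1 and 2, 32.6% between 2 and 4, 63.7% between 4 and 6 and 71.7% from 6 upward, counted within 500 bp of the start. Of the 20 starts of the 9 genes, the 2 known only from the deposited distances included, 1 of 5, 0 of 1, 3 of 8, 2 of 2 and 2 of 4 had a region in the same classes. The 1 below 1 CpG per 100 bp was Cntnap2-002, at 0.999, just under the limit of its class, and the same density was found at the Nrxn3 start at 90191834, which had no region. The 2 without a region from 6 upward were those of Nrxn2. The 2 starts known only from the deposited distances, both of Nlgn1, entered only because the list assigned regions to them. They fall in the classes between 2 and 4 and between 4 and 6, and both had a region. A start without an assigned region could not enter in that way, so these 2 do not bear on the trend with CpG. The RefSeq Nlgn1 start at 26052908, outside all regions, is not among the 20.

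**Figure D3:**
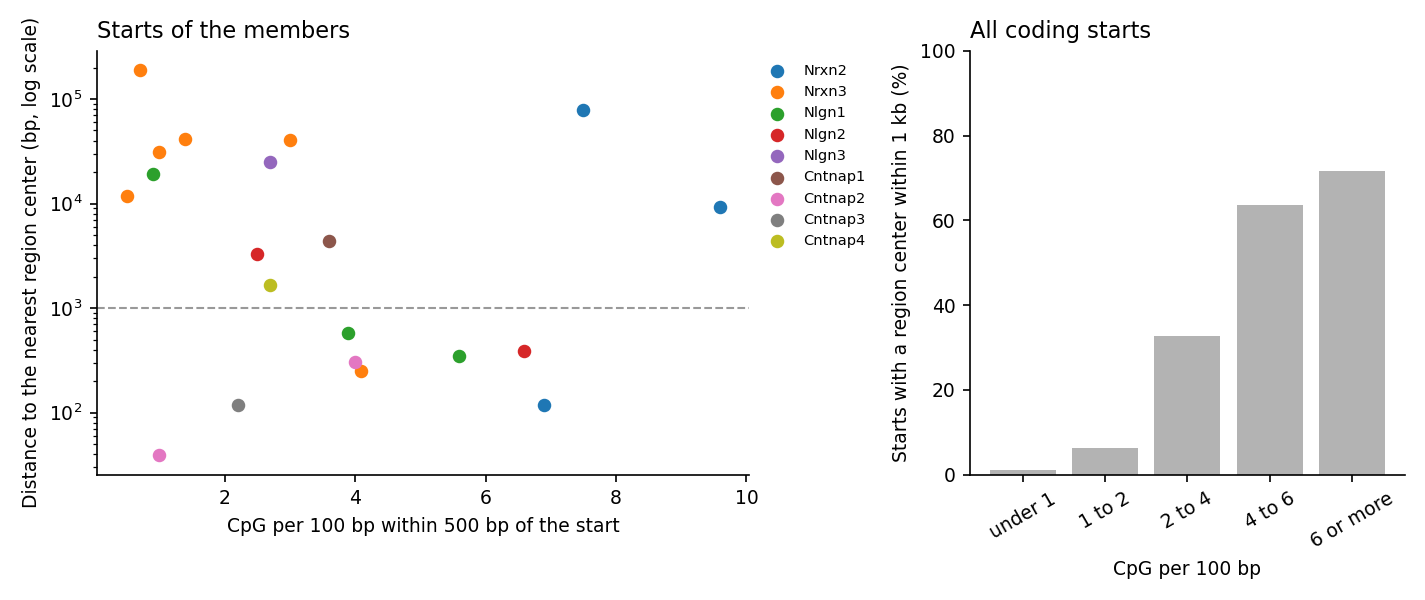
Left, distance (bp, log scale) from each coding or assigned start of the 9 genes to the nearest region center against the CpG per 100 bp within 500 bp of the start, with a dashed line at 1 kb. The 2 Nlgn1 starts known only from the deposited distances entered because regions were assigned to them. Right, the share (%) of all coding starts with a region center within 1 kb, by CpG class, from 1.10% to 71.7%; both Nrxn2 starts above the line lie in the highest class.

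Coding genes under 500 kb had a median of 1 region. For a comparison at like span, the 3 longest of the 9 genes were set beside the 197 coding genes of 500 kb or more. Of these 180 had a region, with a median of 2 (quartiles 1 and 4) and a median of 2.90 regions per Mb of span. Nrxn3, the 9th longest coding gene, had more regions than any other, and its 13.0 assigned regions per Mb were reached by 2 of the 197, itself included. Because Nrxn3 and Cntnap2 were chosen on region number, their standing here is description only. The 13.0 includes assigned regions outside the span, and inside it there were 11.8 per Mb. Cntnap2, the 4th longest, had 5.80 per Mb, a level that 37 of the 197 reached, and Nlgn1 had 5.70 per Mb, which 40 reached. Among 10214 other coding genes with a region, those nearest to Nrxn3 in the summed difference of log2 region number and log2 span were Cntnap2 (1.17) and Lrrc4c (1.37, 10 regions). Those nearest to Cntnap2 were Ptprd (0.91, 7 regions), Lrrc4c (1.15) and Nrxn3 (1.17).

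**Figure D4:**
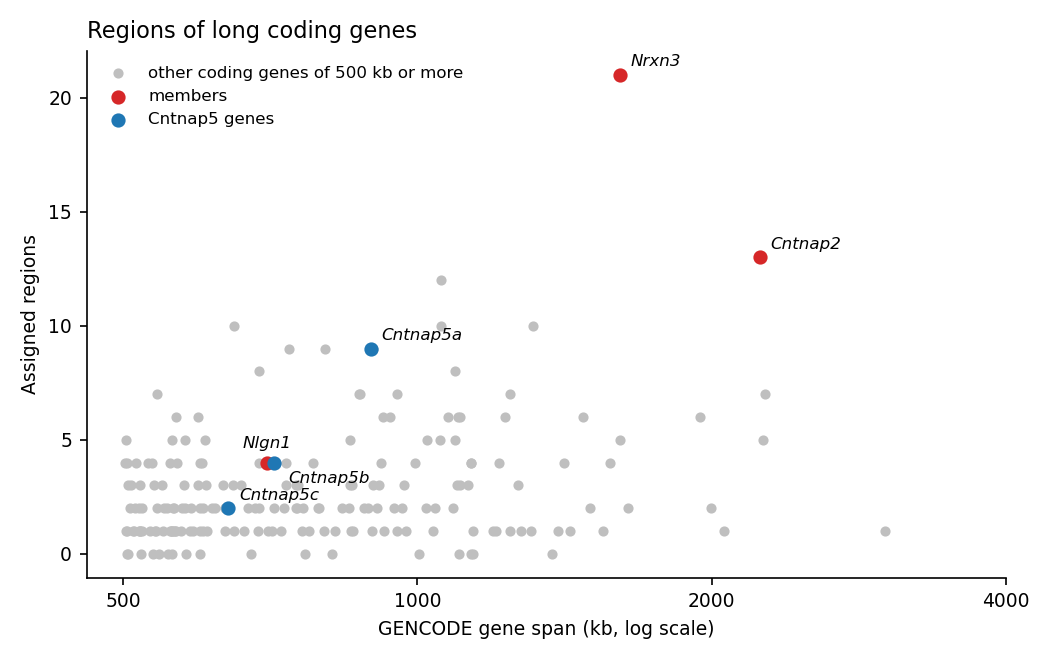
Number of assigned regions against GENCODE span (kb, log scale) for the 197 coding genes of 500 kb or more, with the 9 genes' long members in red and the Cntnap5 genes in blue. Nrxn3 stands highest with 21 regions, Cntnap2 follows with 13, and Nlgn1 has 4.

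The relatives Cntnap5a, Cntnap5b and Cntnap5c, outside the selection, were also accessible, with 9, 4 and 2 regions and each with a region at a start. Of 18 secreted and membrane partners (neurexophilins, cerebellins, LRRTM proteins, calsyntenins, MDGA proteins and dystroglycan) 11 had a region and 9 had one at a start, with 5 regions on Cbln2, 5 on Nxph1 and 4 on Lrrtm1. All 6 contactins, cell adhesion molecules that pair with Caspr proteins, had a region and 4 had one at a start, led by Cntn5 with 7, Cntn1 with 4 and Cntn4 with 2. Of 21 scaffold genes of the synapse 19 had a region and 16 had one at a start, led by Dlg2 with 6, Magi2 with 6 and Dlgap1 with 5. The shares at a start were 50.0% of partners, 66.7% of contactins and 76.2% of scaffolds, beside the 40.6% of all coding genes. Of the 197 coding genes of 500 kb or more, 75.6% had a region at a start. Of coding genes under 500 kb, 41.4% had one. Cntn5, Cntn4, Dlg2, Magi2 and Dlgap1 are genes of 500 kb or more, though Dlg2 had no region at a start. Most of the 21 scaffold genes are shorter than 500 kb. Any bearing of gene length on these shares was not tested.

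The 43 regions lay farther from starts than the list as a whole. Within 1 kb of the assigned TSS were 7 (16.3%, 95% Wilson interval 8.12 to 30.0), against 52.9% of all regions, and beyond 100 kb were 21 (48.8%, 34.6 to 63.2), against 14.9% of all regions. Measured to the nearest GENCODE start of the same gene, 15 of 43 lay beyond 100 kb (34.9%, 22.4 to 49.8). The list share was not recomputed in that way. A center in an intron was found in 26 (60.5%, 45.6 to 73.6), against 15.6% of all regions. Without Nrxn3, 9 of 22 lay beyond 100 kb and 10 of 22 lay in introns. Without both Nrxn3 and Cntnap2, the genes picked for their number of regions, 2 of 9 lay beyond 100 kb (22.2%, 6.32 to 54.7), 2 of 9 in introns and 4 of 9 within 1 kb (44.4%), so that the interval beyond 100 kb held the share of the list. Of the 15 regions of Cntnap5a, Cntnap5b and Cntnap5c, 12 lay beyond 100 kb and 8 in introns. Upstream and downstream of the assigned TSS there were 22 and 21.

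Away from their assigned starts the regions were close to the list in width and poorer in CpG. The 36 beyond 1 kb had a median width of 990.5 bp (quartiles 773.5 and 1119), against 950 bp for the 8081 such regions of the list, and the 7 at starts had 1050 bp, against 1294 bp. Among the 36 were chr12:89960782-89962002 and chr6:46994348-46995377, which cover starts of noncoding transcripts. Median GC content beyond 1 kb was 43.6% (95% order-statistic interval 42.7 to 44.7), against 47.5%, and CpG density was 0.727 per 100 bp, against 1.35. Without Nrxn3 and Cntnap2 the median CpG density of the 5 left beyond 1 kb was 1.55. The 12 regions of the Cntnap5 genes beyond 1 kb had medians of 42.3% GC and 0.591 CpG per 100 bp. Among regions beyond 100 kb, the median GC content was 44.1% for the 21 of these genes and 44.8% for all 2550, and the median CpG density was 0.626 (0.243 to 1.12) and 0.963 per 100 bp. The 43 together covered 44354 bp. In 22 of the 43 no 31-base word was repeated elsewhere in the genome, and in 35 fewer than 5% were.

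Matches to short motifs, searched on both strands in the central 300 bp, are given as a description. The Isl1 motif CTAATG was in 8 of the 36 regions beyond 1 kb (22.2%, 11.7 to 38.1), against 11.2% of all regions beyond 1 kb and 13.7% of those beyond 100 kb. Of the 8, Nrxn3 held 5 and Cntnap2 held 2, and the region with 2 matches nearest to the short Nrxn3 start was chr12:90807238-90807976. The Sox motif AACAAT was in 25.0% (13.8 to 41.1), against 16.0% and 22.4%, with 5 of the 11 Cntnap2 regions and 4 of the 20 Nrxn3 regions. Without Cntnap2 the Sox share was 16.0% (4 of 25). The motif of GATA factors, AGATAA, was in 19.4%, against 14.5% and 17.3%, and AP-1 (TGANTCA) in 13.9%, against 8.59% and 9.33%. Only the 21 regions of these genes beyond 100 kb compare like for like with the second list share. Among them the shares were 19.0% for Isl1 (7.67 to 40.0), 33.3% for Sox, 14.3% for GATA and 19.0% for AP-1. In that comparison GATA lay below the list.

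For the remaining motifs the shares in the list lay within wide intervals. TEAD (GGAATG) was in 16.7%, against 22.2% of all regions beyond 1 kb, Meis (TGACAG) in 19.4%, against 23.2%, and the E-box CAGCTG in 22.2%, against 23.5%. The homeodomain motif TAATTA was in 11.1%, against 8.12%, the E-box CATATG in 2.78%, against 3.08%, and the Sp motif GGGCGG in 11.1%, against 19.3%. The forkhead motif GTAAACA was in 0 of 36, which allows a share of up to 8.33% (3 counts of 36), against 5.53%, and the REST element, searched by its consensus, was in none, against 0.136%. Of the 12 motifs in the central 300 bp, only Isl1 had an interval wholly above the share in all regions beyond 1 kb. That interval held the share in those beyond 100 kb. Without Nrxn3 the Isl1 share was 18.8% (3 of 16, 6.59 to 43.0), and without Cntnap2 it was 24.0% (11.5 to 43.4), so that the first interval held the 11.2% of all regions beyond 1 kb. In the Cntnap5 regions beyond 1 kb the Isl1 share was 16.7% (2 of 12, 4.70 to 44.8). Searched over whole regions the Cntnap5 share was also 16.7%, below the 31.9% of all whole regions beyond 1 kb.

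**Figure D5:**
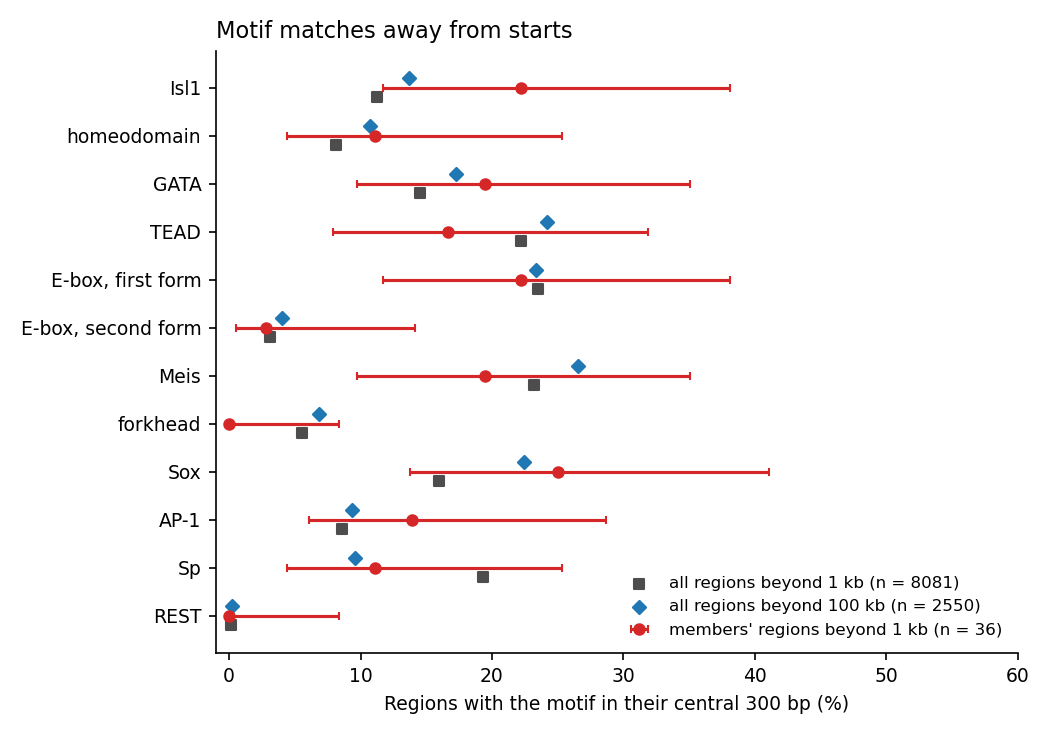
Share (%) of regions with each motif in their central 300 bp. Red shows the 36 regions of the 9 genes beyond 1 kb from their assigned start, with 95% Wilson intervals. Black squares show all 8081 regions beyond 1 kb, and blue diamonds show all 2550 beyond 100 kb. For a count of 0 the line ends at 3 counts of 36 (8.33%), the Isl1 point stands at 22.2%, and most red intervals hold both other marks.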

How the data were processed

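The deposited table lists positions and distances in bp (mm9) for the regions that were common to the 3 control libraries, with the assigned TSS distance, RefSeq identifier and gene symbol. It holds no signal and no value per library. According to the methods, the authors mapped read pairs with Bowtie2 to mm9, removed duplicates with Picard 1.136, called peaks with MACS per library, dropped blacklisted regions and kept regions shared by the libraries, by an overlap of any length, with bedtools 2.15. Each region therefore keeps the width it had in one library. The methods name annotatePeaks.pl, which takes the closest TSS, for ChIP-Seq peaks, and no tool by name for the genes of these regions. Of 17432 rows, 17164 were distinct. All columns used map to the control group, and no other column was used.

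From these positions, places relative to genes, exons and starts were computed with GENCODE vM1 on the same build, whose starts within 500 bp of each other were joined. Regions were called at a start when their center lay within 1 kb. CpG and motifs were counted in the genome sequence, words of 31 bases were counted over the whole genome, and RefSeq promoter sequences were found by exact match. RefSeq promoters were matched for Nrxn3, Cntnap2, Nlgn1, Nlgn2 and Cntnap3. Intervals are 95% Wilson, Poisson or order-statistic intervals. Python 3.11.15, numpy 2.4.6, pandas 2.3.3, scipy 1.17.1, pysam 0.24.0 and matplotlib 3.10.9 were used, and the counting steps were tested on simulated data. No test between groups was made, since one list of one group was used. The genes and lists were chosen with earlier results of these data known. The genes named are the 9 members with every region, the Cntnap5 genes, the 3 genes with the most regions of each list and the genes nearest to Nrxn3 and to Cntnap2, of which the first 3 were taken, and 1 gene that this rule names is not reported here. The Nrxn3 starts without a region and their letters, the repeated words and the share beyond 100 kb for motifs were chosen after the values were seen.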

Additional observations from a re-analysis of the deposited data

How the results depend on the processing

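The region and gene counts, the shares beyond 100 kb, in introns and with each motif, the median width and GC content and the regions per Mb were recomputed under 62 alternatives in all, 2 of them (without Nrxn3 and Cntnap2) chosen after seeing the data. Within the interval of the reported value, or within 1.5 times of a count, were 42. Keeping only regions of 1123 bp or more, the median of the list, left 11 of 43 regions, on 3 of the 7 genes, and 2.11 regions per Mb of span in place of 8.23. Dividing by the territory up to the neighboring coding starts in place of the gene spans gave 5.87 per Mb. Without Nrxn3 and Cntnap2, 22.2% lay beyond 100 kb and 22.2% in introns. Without Nrxn3 the intronic share was 45.5%, the homeodomain share 0% (now below the 8.12% of the list), the TEAD share 6.25% and the share of the E-box CATATG 0%. The median GC content was 48.7% in the central 300 bp, against 44.3% over whole regions. Searching whole regions, which are longer than 300 bp, gave, beside all whole regions beyond 1 kb, 52.8% and 31.9% for Isl1, 27.8% and 25.5% for the homeodomain motif, 52.8% and 42.2% for GATA, 41.7% and 49.5% for TEAD, 44.4% and 49.3% for the E-box CAGCTG, 16.7% and 14.0% for the E-box CATATG, 50.0% and 54.6% for Meis, 44.4% and 43.5% for Sox, and 41.7% and 25.8% for AP-1. The side of the list share also turned for Meis without Nrxn3 (25.0%), for the E-box CAGCTG without Nrxn3 (25.0%) or Cntnap2 (24.0%), and for the E-box CATATG in whole regions or without Cntnap2 (4.00%). In whole regions the Sp motif was in 16.7%, against 32.0% of all whole regions beyond 1 kb, and the forkhead motif in 5.56%, against 15.8%. The whole-region intervals lay wholly above the list share for Isl1 (37.0 to 68.0) and AP-1 (27.1 to 57.8). The interval for Sp (7.87 to 31.9) lay wholly below it.

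No paired analysis was possible because the table gives 1 list for the control group and no value per library. For the same reason no library was left out. A region missing from 1 of the 3 libraries is missing from the list, and absence at a start says only that no region there was common to the 3. Depth is unknown, and with it the smallest opening that the peak caller would have found.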
